A study of Danio rerio with 70 samples.

Results

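Zebrafish T-cell acute lymphoblastic leukaemia (T-ALL) driven by human TLX1 was compared between fish that also carried a phf6 mutation and fish for which no phf6 allele is named. All primary TLX1 tumours in the count table of the TLX1 model were taken: 4 labelled phf6+/- and 2 others, which are 6 of its 24 libraries and of the 70 samples of the series. Both groups carry Tg(rag2:hTLX1; rag2:GFP), in which the rag2 promoter drives human TLX1 and GFP in lymphoid cells. RNA was taken from primary T-ALL cells once GFP-positive cells had filled 90% of the fish. The heterozygous group has the genotype Tg(rag2:hTLX1; rag2:GFP);phf6+/- and its tumours are called heterozygous tumours 1 to 4; the others are called TLX1 tumours 1 and 2. The kind of phf6 allele and the age of the fish are not given in the sources used here. For support there were 12 transplants, each grown from tumour cells injected into a Rag2-/- recipient. They came from heterozygous tumour 1 (3 libraries), heterozygous tumour 2 (3), TLX1 tumour 1 (2) and TLX1 tumour 2 (4), and 2 of the last 4 were second passages grown from another of them. Heterozygous tumours 3 and 4 have none. The healthy tissue was 6 libraries of dissected Tg(rag2:GFP) thymi, in which thymocytes lie among stroma. Their titles begin with AB, and 1 title lists several numbers, so that library may be a pool.

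PHF6 is a nuclear protein with a pair of extended PHD-like zinc fingers that binds chromatin. It is known to associate with the nucleosome remodelling and deacetylase (NuRD) complex, with the polymerase-associated PAF1 complex and with nucleolar factors that control ribosomal RNA transcription. In human T-ALL it is a frequent tumour suppressor gene on the X chromosome, and its mutations are found most often in leukaemias that express TLX1 or TLX3. TLX1 is a homeobox factor that is silent in normal thymocytes and holds leukaemic cells at the cortical stage of thymocyte development.

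Libraries of the primary tumours held 28526934 to 39433264 reads counted to genes. Their T-cell identity was checked first. The lymphocyte kinase gene lck was at 469 to 1104 CPM (reads relative to the library total, scaled by the trimmed mean of M values, TMM) in the 6 tumours and at 406 to 543 CPM in thymi. The coreceptor genes cd4-1 (382 to 1162 CPM) and cd8a (435 to 795 CPM) were both present in every tumour. RAG1, a recombinase gene of immature lymphocytes, was at 3594 to 19530.0 CPM. Human TLX1 was not measured, since the table holds zebrafish genes, and the zebrafish TLX1 gene had 0 reads in all 6 tumours.

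PHF6 RNA (ENSDARG00000004046) did not separate the genotypes. Heterozygous tumours 1 to 4 had 13.8, 8.72, 10.3 and 10.7 CPM. TLX1 tumour 1 had 20.6 CPM and TLX1 tumour 2 had 6.80 CPM. The heterozygous tumours therefore lay between both others, and all 4 were below the 16.6 to 19.3 CPM of thymi, as was TLX1 tumour 2. The difference did not pass edgeR's quasi-likelihood test with Benjamini-Hochberg adjustment, with an estimate of -0.33 on the log2 scale (SE 0.34, edgeR adjusted p = 0.701). Without TLX1 tumour 1 the estimate changed sign, to 0.68 ± 0.30 (SE), edgeR adjusted p = 0.37. Transplants had 12.5 to 15.5 CPM from heterozygous tumour 1, 11.6 to 13.7 CPM from heterozygous tumour 2, which is above that tumour itself, 16.4 to 20.7 CPM from TLX1 tumour 1 and 6.41 to 8.62 CPM from TLX1 tumour 2. Since the kind of phf6 allele is not given, its effect on RNA level is not known here, and these levels do not check the genotype.

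**Figure D1:**
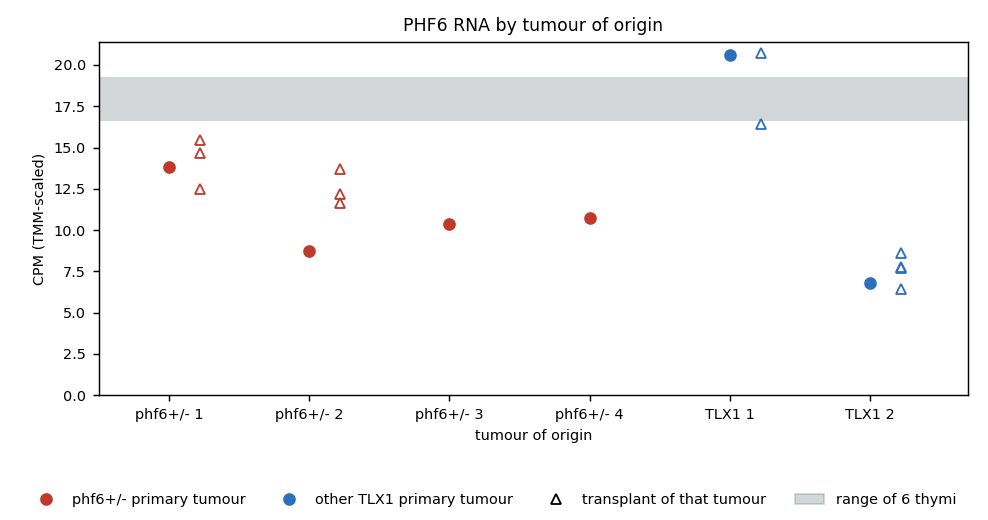
PHF6 RNA in CPM (vertical axis, TMM-scaled) by tumour of origin (horizontal axis); filled circles are primary tumours, open triangles their transplants, and the band spans the 6 thymi. The 4 heterozygous tumours lie at 8.72 to 13.8 CPM, between TLX1 tumour 2 at 6.80 CPM and TLX1 tumour 1 at 20.6 CPM.

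Across all genes the tumours differed as much within a genotype as between genotypes. Spearman's rho, taken across genes that are no independent replicates, was 0.877 to 0.933 within the heterozygous tumours (6 pairs), 0.927 between both TLX1 tumours and 0.898 to 0.942 between genotypes (8 pairs). Thymi were at 0.973 to 0.984 among themselves. The lowest value was between heterozygous tumours 1 and 2. In a principal component analysis of the 2000 most variable genes, the first component (40.5% of variance) ran from heterozygous tumour 1 at -46.9 to heterozygous tumour 2 at 66.6, with the TLX1 tumours at 2.57 and -31.0 in between. Both genotypes stood apart on the third component (15.2%), with -28.0 to -7.96 in heterozygous tumours and 23.7 and 34.6 in the others. The median SD over tumours of a gene's log2 level was 0.482 in the 4 heterozygous tumours, 0.255 in both TLX1 tumours and 0.193 in thymi, over 15461 genes. A median SD taken from so few libraries runs low, most of all for both TLX1 tumours, so these values are not like for like.

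The genotypes were compared in a fit of the 6 tumours and 6 thymi. The thymi enter no contrast, but they share the estimate of each gene's spread, the TMM scaling and the expression filter. Which genes were tested, and the list sizes given below, thus depend on thymi too. Of 22224 genes tested, 9 passed at an edgeR adjusted p under 0.05, which is 0.0405%, with 5 higher and 4 lower in heterozygous tumours. There were 1852 genes (8.33%) higher and 1157 (5.21%) lower at an edgeR unadjusted p under 0.05. In 992 genes (4.46%) all 4 heterozygous tumours were above both others, and in 1151 (5.18%) all 4 were below. The 9 calls depend on having thymi in the fit: fitted on the 6 tumours alone, edgeR called 0 of 15964 genes, with 481 at an unadjusted p under 0.05. With the 6 thymi in the fit, limma voom called 1 of 22224 genes and the DESeq2 test 719. The labels do not say which tumours came from separate fish, so p-values measure a spread between samples, pooled over tumours and thymi. Thymi varied less, with a median SD of 0.193 (n = 6) against 0.482 in heterozygous tumours (n = 4) and 0.255 in TLX1 tumours (n = 2, where it runs low). The p-values of this fit, and the counts at an unadjusted p under 0.05, can therefore overstate differences between tumours.

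CXADR (ENSDARG00000043658) encodes a cell adhesion receptor of the immunoglobulin superfamily, found at tight junctions and known in human cells as the entry receptor of coxsackieviruses and adenoviruses. It was at 32.4, 16.8, 6.20 and 20.9 CPM in heterozygous tumours 1 to 4 and at 0.567 and 0.303 CPM in TLX1 tumours 1 and 2. Every heterozygous tumour was above all 6 thymi (2.38 to 5.52 CPM) and both TLX1 tumours were below them. The gene rose by 5.43 on the log2 scale (SE 0.72, edgeR adjusted p = 0.0325), with means of 19.1 ± 10.8 CPM (SD, n = 4) in heterozygous tumours and 0.435 ± 0.186 CPM (SD, n = 2) in the others. Transplants of heterozygous tumours had 12.6 to 20.7 CPM and those of TLX1 tumours 0.0373 to 0.711 CPM, with no overlap.

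A pair of ferritin-like genes rose as well. Ferritins store iron as a shell of heavy and light chains, and zebrafish have a set of fthl genes beside the heavy chain gene fth1a. The gene fthl28 was at 19.8, 18.3, 24.03 and 17.7 CPM in heterozygous tumours, against 1.204 and 3.55 CPM in the others and 14.6 to 27.9 CPM in thymi. Its heterozygous values lay within the range of thymi and those of both TLX1 tumours below it (log2 difference 3.08, SE 0.45, edgeR adjusted p = 0.0351). The gene fthl30 was at 1.60, 1.301, 1.07 and 2.11 CPM against 0.106 and 0.173 CPM, all under the 8.81 to 14.7 CPM of thymi (log2 difference 3.43, SE 0.46, edgeR adjusted p = 0.0325). Other ferritin genes did not pass. The heavy chain gene fth1a was at 609 to 1882 CPM in heterozygous tumours and at 1158 and 1195 CPM in the others, and fthl27 was at 113 to 251 and at 163 and 235 CPM. Reads shared between fthl copies were not resolved.

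MFAP4 ENSDARG00000090557, 1 of several zebrafish copies of a fibrinogen-domain gene family of which some mark macrophages, rose at a low level. It was at 0.996, 1.11, 1.91 and 1.03 CPM in heterozygous tumours and at 0.0708 and 0.0433 CPM in the others (log2 fold change 4.36 ± 0.65 (SE), edgeR adjusted p = 0.0351). Only 3 reads fell on it in both TLX1 tumours together, against 102 in the heterozygous ones, a depth-corrected ratio of 20.9 with an exact 95% interval of 6.95 to 103 for counting error alone. The clone-named gene si:ch211-214b16.2 was at 6.37, 10.7, 8.55 and 9.86 CPM against 0.283 and 0.303 CPM and rose (4.90 ± 0.72, edgeR adjusted p = 0.0351). Thymi had 0.1199 to 0.753 CPM of it, so the heterozygous tumours were the high group here. This gene and a further pair of clone-named genes had no informative symbol and were named after their values were seen.

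Of the 4 genes that fell, si:ch73-168d20.1 gave the smallest p-value. It had 0, 0, 1 and 0 reads in heterozygous tumours 1 to 4, and 5.74 and 6.71 CPM in the others, below the 10.9 to 14.2 CPM of thymi. It fell by 8.61 on the log2 scale (SE 0.52, edgeR adjusted p = 9.53e-06). By reads alone, 1 against 317, the depth-corrected ratio was 516 with an exact 95% interval of 91.95 to 20440.0. MACROD2, which encodes an enzyme that removes ADP-ribose from proteins, was at 13.9, 14.9, 16.1 and 21.3 CPM in heterozygous tumours and at 57.4 and 44.1 CPM in the others, with thymi at 11.9 to 17.4 CPM. It fell by 1.62 on the log2 scale (SE 0.23, edgeR adjusted p = 0.0351).

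RNF14 ENSDARG00000078683, a copy of a ubiquitin ligase gene whose human product binds the androgen receptor, was at 3.45, 4.23, 4.05 and 3.48 CPM in heterozygous tumours. TLX1 tumour 1 had 74.2 CPM and TLX1 tumour 2 had 10.1 CPM, both above the 2.40 to 3.59 CPM of thymi. It fell by 3.47 on the log2 scale (SE 0.51, edgeR adjusted p = 0.0351). A second gene of that symbol, ENSDARG00000104631, had 0.569 to 2.64 CPM in heterozygous tumours and 24.9 and 2.81 CPM in the others and did not pass (edgeR adjusted p = 0.128). The last gene, si:ch211-117c9.5, was at 2.28, 6.57, 5.42 and 5.93 CPM against 22.4 and 28.7 CPM (-2.34 ± 0.35, edgeR adjusted p = 0.0351).

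Leaving out 1 tumour at a time, CXADR, fthl30, MACROD2 and si:ch73-168d20.1 passed in all 6 fits. Without heterozygous tumour 4, fthl28, si:ch211-214b16.2, si:ch211-117c9.5 and RNF14 ENSDARG00000078683 missed the threshold (edgeR adjusted p = 0.0507, 0.0507, 0.0507 and 0.0629). Without TLX1 tumour 1, RNF14 ENSDARG00000078683 (-1.41, edgeR adjusted p = 0.0988) and si:ch211-214b16.2 (0.0549) missed it. Without TLX1 tumour 2, MFAP4 ENSDARG00000090557, si:ch211-214b16.2 and si:ch211-117c9.5 did (edgeR adjusted p = 0.066, 0.0614 and 0.055).

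**Figure D2:**
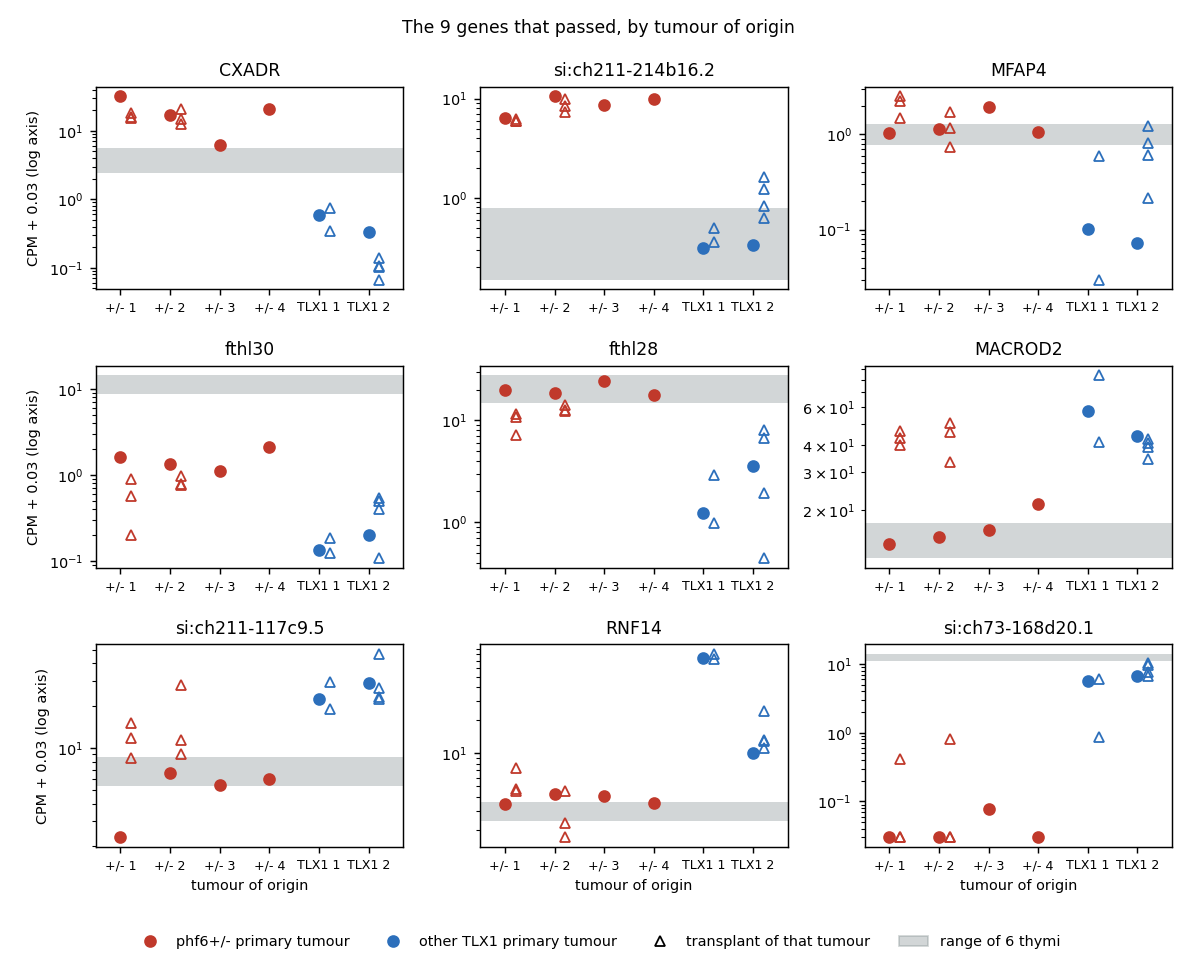
CPM plus 0.03 on a log axis for the 9 genes that passed, by tumour of origin; filled circles are primary tumours, open triangles transplants, and the band spans the 6 thymi. CXADR keeps its gap in transplants, while MACROD2 in transplants of heterozygous tumours (33.4 to 50.7 CPM) reaches the level of the TLX1 tumours.

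Transplants share their cells' origin with the primary tumours and are not independent of them. In 4 of the 9 genes all 6 transplants of heterozygous tumours lay beyond all 6 transplants of TLX1 tumours in the direction of the primary tumours. These were CXADR, si:ch211-214b16.2 (5.96 to 9.83 against 0.332 to 1.59 CPM), RNF14 ENSDARG00000078683 (1.68 to 7.28 against 11.1 to 80.8 CPM) and si:ch73-168d20.1 (0 to 0.780 against 0.850 to 10.3 CPM). Over all genes tested, 1.17% were apart upwards and 1.498% downwards in transplants. Of the 992 and 1151 genes apart in primary tumours, 6.86% and 9.47% were apart in transplants in that direction. MACROD2 was the clearest exception. It had 33.4 to 50.7 CPM in transplants of heterozygous tumours and 34.2 to 84.6 CPM in the others, and fthl28 overlapped slightly, at 7.12 to 14.2 against 0.410 to 7.96 CPM.

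Below the threshold lay genes with a full separation of the groups, at least a 2-fold estimate and at least 8 CPM in the higher group. There were 71 higher and 78 lower ones, and the 12 each way with the smallest p and an informative symbol were examined. By this choice none passed the edgeR test. All 24 passed the DESeq2 test, which called 719 genes on the same counts and so gives no independent check. The secreted protein gene OLFM2 had the widest gap upwards. It was at 114, 128, 432 and 10.3 CPM in heterozygous tumours and at 0.0708 and 3.16 CPM in the others (log2 fold change 6.75 ± 1.51 (SE), edgeR adjusted p = 0.135). Transplants of heterozygous tumours had 32.3 to 318 CPM and those of TLX1 tumours 0.0772 to 0.332 CPM. XPA, a DNA damage recognition gene of nucleotide excision repair, was at 144, 93.1, 73.3 and 134 CPM against 42.8 and 39.3 CPM, both above the 13.6 to 23.6 CPM of thymi (1.44 ± 0.33, edgeR adjusted p = 0.138). Its transplants were apart too, at 83.0 to 148 and 30.7 to 56.4 CPM, as were those of syndig1l (12.7 to 26.8 and 2.21 to 11.9 CPM).

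The remaining upper genes included nme2b.2 and the muscle genes ckma, ckmb and MYL11, of which ckma is taken up with the muscle markers. The lymphocyte gene lsp1a was at 0.854 and 1.69 CPM in heterozygous tumours 1 and 2 and at 18.1 and 24.8 CPM in tumours 3 and 4, against 0.212 and 0.303 CPM in the others (edgeR adjusted p = 0.166). The other upper genes were glipr1a, MED11, mfap4.8 and CETP, with edgeR adjusted p of 0.128, 0.166, 0.179 and 0.188.

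Among the lower genes, several were high in 1 TLX1 tumour rather than both. The cadherin gene cdh4 was at 2.02 to 7.47 CPM in heterozygous tumours, 9.78 CPM in TLX1 tumour 1 and 237 CPM in TLX1 tumour 2 (-4.90 ± 0.80, edgeR adjusted p = 0.0534). The postsynaptic scaffold gene DLGAP2 had 0 reads in all heterozygous tumours and 0.0708 and 39.2 CPM in the others. It was at least 498-fold lower against a floor of 3 reads over the 4 libraries, a bound carried by TLX1 tumour 2 (edgeR adjusted p = 0.0983). The T-cell receptor segment gene tradv30.0.6 had 0.142 CPM in TLX1 tumour 1 and 34.1 CPM in tumour 2, and 3 reads in the heterozygous tumours together (edgeR adjusted p = 0.0513). Transplants of TLX1 tumour 2 kept both, at 36.3 to 99.6 CPM of DLGAP2 and 17.7 to 106 CPM of tradv30.0.6.

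Others were high in both. GYS1, which encodes glycogen synthase, was at 9.82, 18.5, 18.7 and 6.84 CPM in heterozygous tumours and at 40.8 and 52.9 CPM in the others (-1.80 ± 0.35, edgeR adjusted p = 0.0983). PYGM, a glycogen phosphorylase that releases glucose from glycogen, was at 2.56, 10.5, 3.96 and 5.76 CPM against 28.6 and 20.6 CPM (-2.12 ± 0.45, edgeR adjusted p = 0.128). Both overlapped in transplants, where GYS1 was at 21.4 to 49.9 and 22.7 to 82.4 CPM. The ubiquitin ligase gene RNF145 was at 2.91 to 6.44 CPM against 11.5 and 37.3 CPM (-2.38 ± 0.40, edgeR adjusted p = 0.0582) and stayed apart in transplants, at 2.25 to 4.55 and 5.17 to 23.2 CPM.

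Sugar metabolism was examined as a list of 39 glycolysis and lactate transport genes. None passed the edgeR test, 2 higher and 2 lower passed the DESeq2 test, and limma voom called no member of any list. At an edgeR unadjusted p under 0.05, 13 were lower and 7 higher in heterozygous tumours, against 5.21% and 8.33% of all genes. The list median was -0.24 on the log2 scale, against 0.07 for all genes tested, and stayed below 0 in the other 15 fits (-0.54 to -0.10), though on the 6 tumours alone only 8 were lower. The lower members include genes of glucose uptake, glycolytic enzymes and lactate export. The glucose transporter gene SLC2A1 was at 15.9, 11.1, 12.06 and 22.8 CPM in heterozygous tumours and at 45.8 and 26.0 CPM in the others (-1.22 ± 0.29, edgeR adjusted p = 0.155). The transporter gene slc2a3b was at 14.3, 20.4, 13.8 and 23.2 CPM against 64.6 and 26.8 CPM (edgeR adjusted p = 0.14).

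Among the enzymes, HK1, which phosphorylates glucose at the start of glycolysis, was at 67.5, 46.6, 42.7 and 37.2 CPM against 88.0 and 109 CPM. The aldolase gene ALDOA ENSDARG00000011665 was at 299, 947, 545 and 711 CPM against 1895 and 1529 CPM (-1.45 ± 0.34, edgeR adjusted p = 0.147). GPI ENSDARG00000012987, which makes fructose 6-phosphate, was at 115, 295, 149.9 and 199 CPM against 507 and 354 CPM. In each of these genes all 4 heterozygous tumours were under both others. At the end of the pathway, pyruvate kinase PKM ENSDARG00000099730 was at 247 to 324 CPM against 385 and 592 CPM. The lactate exporter gene SLC16A3 ENSDARG00000045051 was at 2.53, 12.2, 3.96 and 12.5 CPM against 29.1 and 29.2 CPM. In transplants the groups overlapped, at 10.35 to 28.0 and 5.41 to 47.3 CPM of SLC2A1, 16.7 to 64.1 and 24.3 to 68.6 CPM of slc2a3b and 289.5 to 328 and 314 to 535 CPM of GPI ENSDARG00000012987. Among the higher members, PFKM ENSDARG00000014179 and PKM ENSDARG00000099860 did not exceed 1.14 CPM in any tumour, while the phosphofructokinase gene PFKP ENSDARG00000028000 was at 44.2 to 68.3 CPM against 32.9 and 31.8 CPM.

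The next list held 31 genes of antigen presentation, the machinery that cuts proteins into peptides and loads them onto MHC class I molecules. None passed the edgeR test, and 4 passed the DESeq2 test as lower. By unadjusted p, 13 were lower and none higher, against 5.21% and 8.33% of all genes. Only 2 of the 31 had an estimate above 0, against 11963 of all 22224 genes. The list median was -0.73 on the log2 scale and remained below 0 in the other 15 fits (-1.18 to -0.18). The beta-2-microglobulin gene b2ml, the light chain of class I molecules, was at 446, 272, 344 and 327 CPM in heterozygous tumours and at 654 and 679 CPM in the others (-0.94 ± 0.23, edgeR adjusted p = 0.155). The tapasin gene tapbp.1, which helps load peptides, was at 17.5, 8.78, 15.7 and 18.8 CPM against 54.6 and 25.4 CPM (-1.40 ± 0.31, edgeR adjusted p = 0.135). The immunoproteasome subunit gene PSMB8 was at 158, 80.5, 166 and 98.4 CPM against 289 and 257 CPM (-1.12 ± 0.27, edgeR adjusted p = 0.155). The groups did not overlap in any of these genes, nor in PSMB9 and the peptide-trimming enzyme gene ERAP1 ENSDARG00000021859. For b2m and the peptide transporter gene tap2a they did. The share of reads of the whole list overlapped too, at 0.189% to 0.384% in heterozygous tumours against 0.661% and 0.290% in TLX1 tumours 1 and 2. Without TLX1 tumour 1 the list had 6 lower and 4 higher genes, and without TLX1 tumour 2 it had 20 lower. Scaled by library size alone 8 were lower, and on the 6 tumours alone 5. In transplants tapbp.1 overlapped (11.4 to 51.8 and 17.0 to 50.1 CPM), as did b2ml (244 to 700 and 381 to 616 CPM) and PSMB8 (50.5 to 255 and 198 to 390 CPM). Every transplant of heterozygous tumour 1 had more b2ml than any transplant of TLX1 tumours.

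Several of these genes are targets of interferon. A list of 31 interferon response genes had 9 lower and none higher by edgeR's unadjusted p, against 5.21% and 8.33% of all genes. None passed the edgeR test and 1 passed the DESeq2 test as lower. Its median of -0.57 on the log2 scale turned to 0.09 without TLX1 tumour 1, when 1 gene was lower and 1 higher. The count was 3 without heterozygous tumour 1, 5 without heterozygous tumour 4 13 without TLX1 tumour 2, and 1 on the 6 tumours alone. The antiviral gene mxa was at 0.854, 0.716, 3.22 and 0.912 CPM in heterozygous tumours and at 8.54 and 3.38 CPM in the others. The ubiquitin-like gene isg15 was at 12.8, 20.6, 9.72 and 1.25 CPM against 58.4 CPM in TLX1 tumour 1 and 18.4 CPM in TLX1 tumour 2, an overlap. The regulator gene irf1b was at 302 CPM in TLX1 tumour 1 but at 37.1 CPM in tumour 2, under all heterozygous tumours (43.1 to 73.8 CPM).

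**Figure D3:**
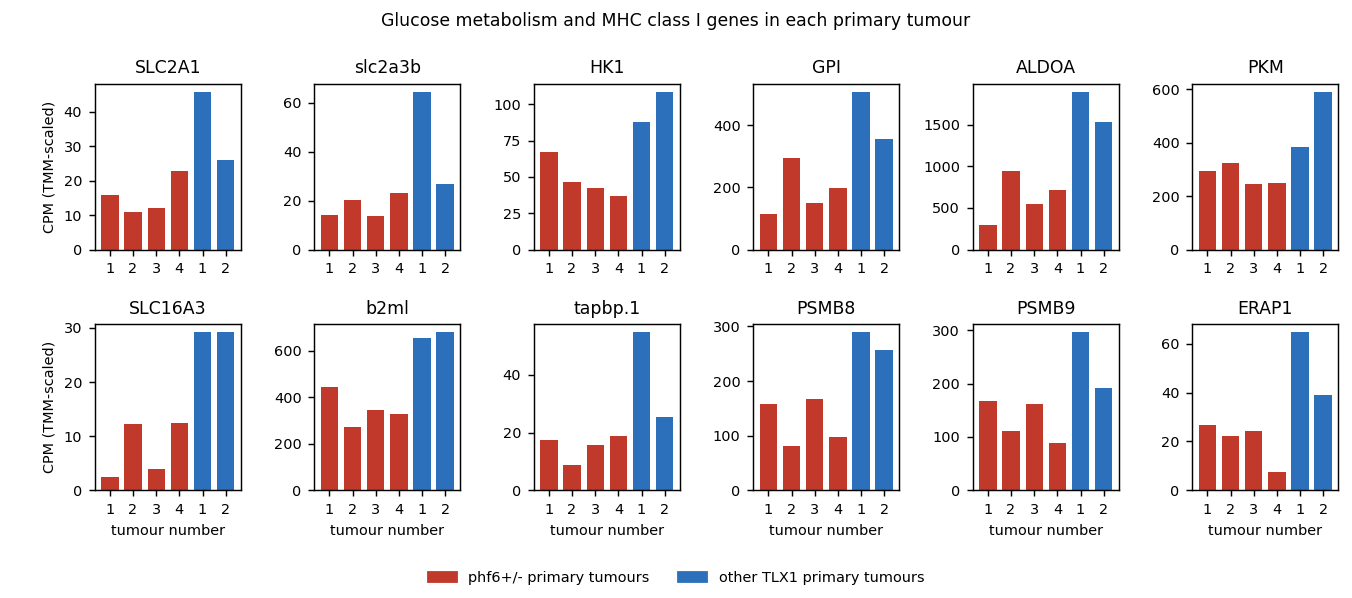
CPM (vertical axes, TMM-scaled, from 0) of 7 glucose metabolism genes and 5 antigen presentation genes in each primary tumour; 1 bar is 1 library. Every heterozygous bar is lower than both TLX1 bars in each panel, and no gene of the 12 passed the edgeR test. The genes were picked with values known, so the gap in each panel follows from the choice. All heterozygous tumours were below both others in 12 of 39 glycolysis and 10 of 31 antigen presentation genes, against 5.18% of all genes. They were above both in 3 and 0, against 4.46%.

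Genes nearest to the known work of PHF6 gave few differences at an unadjusted p under 0.05. A list of 36 partners and rRNA transcription factors had 2 lower and 0 higher at that unadjusted p, against 5.21% and 8.33% of all genes. Its median was -0.23 on the log2 scale, with 0 passing edgeR or DESeq2, and stayed below 0 in the other fits (-0.34 to -0.07). Only 8 of the 36 had an estimate above 0, against 11963 of all 22224 genes. All heterozygous tumours were below both others in 4, against 5.18% of all genes, and above both in 0, against 4.46%. The NuRD subunit gene MTA3 was at 68.2, 62.1, 71.6 and 86.2 CPM against 90.4 and 125 CPM (-0.58 ± 0.20, edgeR adjusted p = 0.264). RTF1, which encodes a PAF1 complex factor, was at 94.3, 51.3, 61.8 and 66.0 CPM against 98.1 and 99.2 CPM. Ribosome biogenesis, the nucleolar step that follows rRNA transcription, showed small differences in 1 direction. Of 62 genes, 57 had an estimate of 0 or below, and 0 passed edgeR or DESeq2. By that count 14 were lower and none higher, against the same 5.21% and 8.33% of all genes. In 20 of the 62 all heterozygous tumours were below both others, against 5.18% of all genes. The share of reads of the whole list overlapped, at 0.331% to 0.616% in heterozygous tumours against 0.632% and 0.515% in TLX1 tumours 1 and 2. The nucleolar methyltransferase gene FBL was at 243, 239.9, 183 and 208 CPM against 334 and 345 CPM (-0.64 ± 0.20, edgeR adjusted p = 0.237). The helicase gene DDX18 was at 96.9, 106, 78.2 and 95.8 CPM against 146 and 147 CPM. The list median of -0.36 stayed below 0 in all other fits (-0.50 to -0.18). The count of 14 fell to 5 by library size alone and 6 with DESeq2 size factors, and was 24 without heterozygous tumour 2, 9 without heterozygous tumour 3 or 4 and 7 without TLX1 tumour 2. It was 6 with summed transplants in the fit and 0 on the 6 tumours alone. In transplants FBL overlapped, at 76.6 to 346 and 274 to 467 CPM.

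Cytosolic ribosomal protein genes took 36.3% to 51.5% of reads in heterozygous tumours and 44.6% and 43.8% in the others, and 1 of 81 was higher and 1 lower by the same count, but 25 were higher without heterozygous tumour 1. DNA replication genes had a median of -0.40, with 9 of 59 lower and 1 higher, but the number lower was 0 by library size alone and 1 without heterozygous tumour 1 or without TLX1 tumour 1. Mitosis genes had 2 of 50 lower and 0 higher. Their median of -0.42 turned to 0.56 without TLX1 tumour 1, when 6 were higher and 1 lower, while 14 were lower without TLX1 tumour 2 and 11 without heterozygous tumour 4. Of 31 polycomb and chromatin regulator genes, 4 were lower and none higher, against 5.21% and 8.33% of all genes. The number lower was 0 by library size alone. The 4 were JARID2, DNMT3B, tet3 and EED, a core subunit of the H3K27 methyltransferase complex, which was at 39.8, 36.3, 45.0 and 56.8 CPM against 68.6 and 64.7 CPM (-0.58 ± 0.22, edgeR adjusted p = 0.297). Its catalytic partner EZH2 was at 30.4 to 119 CPM against 70.16 and 91.5 CPM, overlapping, and so was the demethylase gene KDM6A, at 25.2 to 125 against 54.5 and 82.5 CPM. None of these 4 lists had a member passing the edgeR or DESeq2 test.

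**Figure D4:**
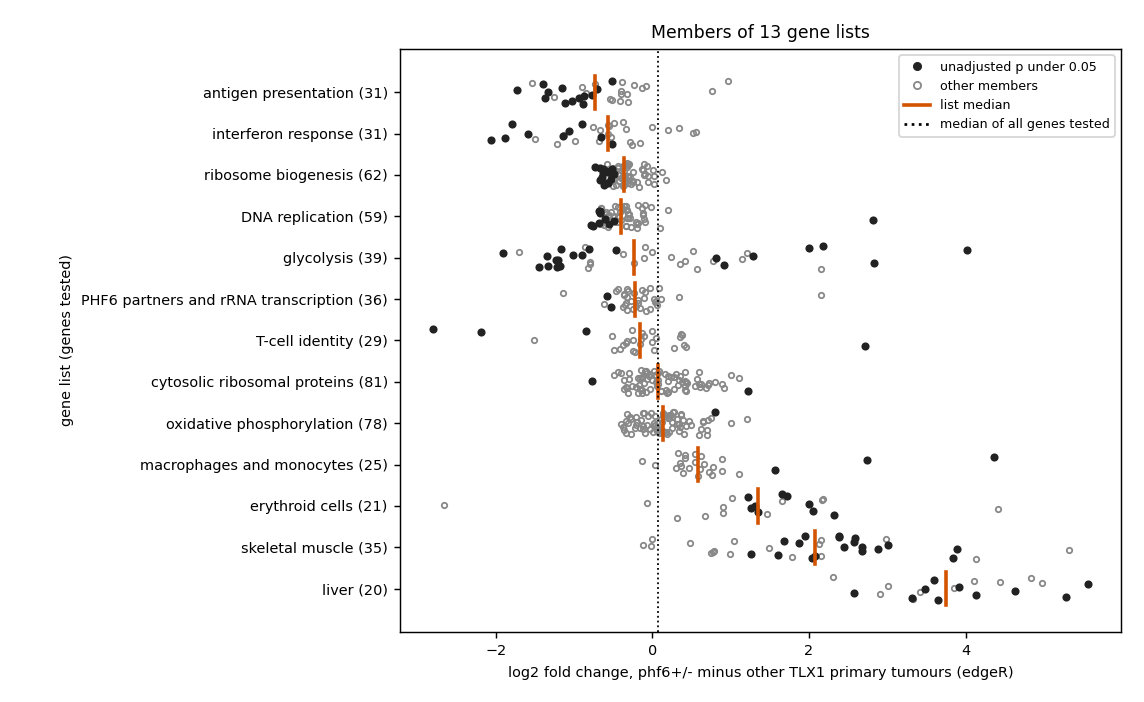
Log2 fold change of heterozygous minus other primary tumours (horizontal axis) for every tested member of 13 gene lists; filled points have an edgeR unadjusted p under 0.05, orange bars are list medians and the dotted line is the median of all genes. Antigen presentation, interferon and ribosome biogenesis genes lie mostly left of the line, and erythroid, muscle and liver markers right of it.

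Genes of T-cell leukaemia itself were examined next. Of 29 T-cell identity genes, 3 were lower and 1 higher with unadjusted p under 0.05, against 5.21% and 8.33% of all genes. The clearest was lat, the adaptor that relays the T-cell receptor signal, at 109, 109, 119.7 and 129 CPM in heterozygous tumours and at 214 and 206 CPM in the others (-0.85 ± 0.18, edgeR adjusted p = 0.12), and it passed the DESeq2 test (DESeq2 adjusted p = 7.96e-06). Thymi were in between, at 135 to 173 CPM, and transplants overlapped. Expression of the T-cell receptor beta constant gene trbc1 crossed the genotypes: 632, 212, 118 and 3.70 CPM in heterozygous tumours, and 530.5 and 1.08 CPM in the others. It was lowest in heterozygous tumour 4 and TLX1 tumour 2. The MYC genes did likewise. MYC ENSDARG00000045695 was at 534, 6.89, 246 and 568 CPM and at 807 and 4.03 CPM, and MYC ENSDARG00000007241 at 7.43, 1013, 6.94 and 3.99 CPM and at 4.39 and 710.0 CPM. Heterozygous tumour 2 and TLX1 tumour 2 were thus high in the second copy and the other 4 in the first, and transplants followed their tumour.

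By the same count 3 of 34 Notch pathway genes were higher, a share near the 8.33% of all genes. None was lower, against 5.21% of all genes. The receptor gene NOTCH1 ENSDARG00000052094 was at 4.45, 5.14, 2.1 and 0.684 CPM against 0.744 and 0.909 CPM, far below the 17.4 to 28.6 CPM of thymi (edgeR adjusted p = 0.234). Transplants of heterozygous tumours 1 and 2 had 3.89 to 7.28 CPM of it and those of TLX1 tumours 0.0373 to 0.349 CPM. Of 49 genes of the IL7R, JAK-STAT and PI3K pathways, 9 were lower and 2 higher, with 3 to 7 lower when 1 tumour was left out, and 2 each way passed the DESeq2 test. Single tumours carried the largest of these. The PI3K subunit gene PIK3CD was at 838 CPM in TLX1 tumour 1 and at 10.8 to 75.5 CPM in the other 5, and the kinase gene akt2 was at 1121 CPM in TLX1 tumour 2 and at 74.1 to 203 CPM in the other 5. Of 39 genes of adhesion and homing, CXADR alone passed. The chemokine receptor gene CCR6 was at 0.996, 15.3, 2.05 and 7.64 CPM against 0.177 and 0.0866 CPM (edgeR adjusted p = 0.108), and CXCR3 at 1.67, 3.90, 4.103 and 3.99 CPM against 6.41 and 34.5 CPM (edgeR adjusted p = 0.101).

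Marker genes of erythroid cells, muscle and liver had a larger share of members higher at an unadjusted p under 0.05 than the 8.33% of all genes. None of them passed the edgeR test. Larger shares were also seen for skin (8 of 20), fibroblasts (8 of 26), endothelium (6 of 18, with 1 lower), thrombocytes (4 of 12), progenitors (4 of 17) and thymic epithelium (3 of 16). On the 6 tumours alone the numbers higher were, in that order, 2 of 15, 1 of 24, 0 of 12, 1 of 12, 2 of 11 and 0 of 9. Shares of reads overlapped between the groups in each of these lists except thrombocytes. Kidney had 1 of 12, neutrophils 1 of 11 and exocrine pancreas 0 of 16 higher. Cytotoxic and natural killer genes had 0 of 15 higher and 4 lower, against 5.21% of all genes lower. Their median of -1.21 on the log2 scale turned to 1.44 without TLX1 tumour 1, and their share of reads overlapped between the groups. In these bulk samples fewer cells of a type and less RNA per cell cannot be told apart. Of 21 erythroid genes, 9 were higher and none lower by edgeR's unadjusted p, with a list median of 1.34, and 4 passed the DESeq2 test. The 22 matched markers took 0.0373%, 0.0330%, 0.0602% and 0.0899% of reads in heterozygous tumours and 0.0271% and 0.0126% in the others, without overlap, against 0.0877% to 0.287% in thymi. The haem synthesis gene alas2 was at 29.5, 43.2, 57.0 and 130.1 CPM against 20.1 and 12.5 CPM (2.00 ± 0.61, edgeR adjusted p = 0.218). Without TLX1 tumour 2 the count fell to 2. Of 35 skeletal muscle genes, 18 were higher and 0 lower, with a median of 2.07, and 10 passed the DESeq2 test. Their share of reads overlapped, at 0.0253% to 0.0450% in heterozygous tumours and 0.0241% and 0.0256% in the others. That share is a sum in which 1 gene can weigh most. The listed gene ENO3 was at 211 to 602 CPM in transplants, far above ckma there, so the overlap need not hold for other muscle genes. The creatine kinase gene ckma was at 15.7, 27.25, 9.09 and 24.7 CPM against 4.89 and 2.12 CPM, far under the 348 to 619 CPM of thymi (2.44 ± 0.49, edgeR adjusted p = 0.101). The count was 10 without TLX1 tumour 2 and 2 by limma voom at an unadjusted p under 0.05, and in transplants ckma was at 0.636 to 5.34 and 0.186 to 5.43 CPM.

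Liver genes had 10 of 20 higher and 0 lower, against 8.33% and 5.21% of all genes, with all 20 estimates above 0. They took 0.452% of reads in heterozygous tumour 2, 0.0439% and 0.0616% in tumours 3 and 4, and 0.00376% in tumour 1, which was under the 0.0120% and 0.00796% of TLX1 tumours 1 and 2. Without heterozygous tumour 2, without TLX1 tumour 1 or without TLX1 tumour 2 the count was 0, and without heterozygous tumour 1 it was 18. The transferrin gene tfa was at 1100.0 CPM in heterozygous tumour 2 and 2.06 CPM in tumour 1. Of the macrophage list, 3 of 25 genes were higher and 0 lower, against the same 8.33% and 5.21% of all genes. In 24 of the 25 the estimate was above 0. The list median was 0.58 on the log2 scale, but -0.0045 without heterozygous tumour 2. MFAP4 ENSDARG00000090557 alone passed, and the share of reads overlapped (0.0311% to 0.112% against 0.0608% and 0.0524%). The defining macrophage gene MPEG1 ENSDARG00000078569 was at 0 to 0.879 CPM in all 6 tumours. Of 20 B cell and plasma cell genes, 1 was higher and 1 lower, near the 8.33% and 5.21% of all genes. An estimate above 0 was seen in 10, and the median was -0.02. The lower one was the immunoglobulin gene ighm, at 45.2, 72.5, 40.0 and 17.0 CPM against 274 and 118 CPM (-2.17 ± 0.42, edgeR adjusted p = 0.0983), and had 0.0948 to 7.53 CPM in transplants. CXADR and si:ch211-214b16.2 were above every thymus in all heterozygous tumours and did not overlap in transplants. The part of other cells in these and the other genes that passed was not tested.

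**Figure D5:**
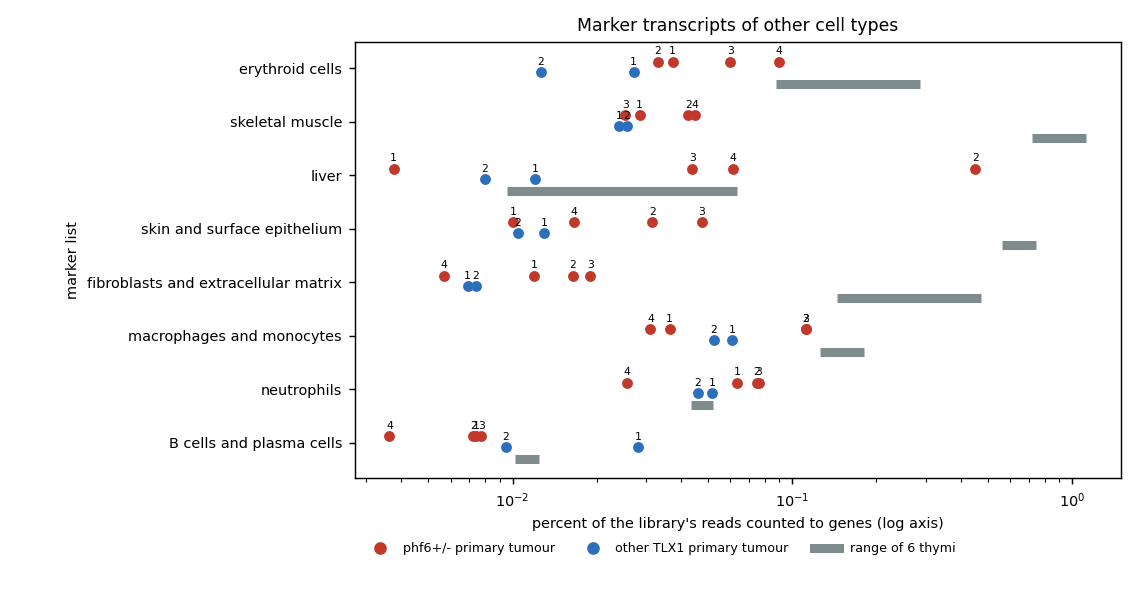
Percent of reads (horizontal log axis) taken by 8 marker lists in each primary tumour, with tumour numbers, and the range of 6 thymi as bars. Erythroid markers are higher in all 4 heterozygous tumours than in both others, and liver markers are highest in heterozygous tumour 2 at 0.452%.

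Each tumour also had genes of its own, defined as at least 8 CPM and 8-fold above all other primary tumours after adding 0.5 CPM. There were 14, 41, 3 and 21 in heterozygous tumours 1 to 4 and 12 and 34 in TLX1 tumours 1 and 2. Of the 14 genes of heterozygous tumour 1, 13 were above all other primary tumours in every transplant of that tumour. No 8 CPM or 8-fold limit was applied in transplants. Among the 13 were RAVER2, at 83.2 CPM against at most 1.39 CPM in the other primary tumours, and the teneurin gene TENM2 (37.3 CPM). For TLX1 tumour 2 it was 33 of 34, including FREM3 at 369.7 CPM and the synaptic vesicle gene SV2B at 486 CPM. For heterozygous tumour 2 only 12 of 41 did. The lysosomal channel gene TPCN2, at 114 CPM, was kept at 64.6 to 124 CPM, whereas the liver gene serpina1, at 643 CPM, was at 3.59 to 10.39 CPM in them. The 3 transplants of that tumour resembled TLX1 tumours more closely than their own origin, while the other 9 were closest to theirs. Heterozygous tumour 4 alone was high in vitellogenin genes, which encode egg yolk proteins made in female liver, with vtg4 at 302 CPM and vtg7 at 245 CPM, and in MEGF6 at 105 CPM.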

How the data were processed

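Raw read counts per Ensembl gene (35117 genes) were deposited by the authors for 24 libraries of the TLX1 model. Per the submitters' processing notes, STAR was used with GRCz10. The labels' protocols give a stranded TruSeq mRNA kit, and the counting tool and its strand setting are not given in the sources used here. Counts were tested with edgeR 4.0.16 (R 4.3.3) on the 6 primary tumours and 6 thymi: TMM, filterByExpr (minimum count 10, total 15), robust quasi-likelihood tests and Benjamini-Hochberg adjustment, threshold 0.05. SEs are those the F-test implies. CPM use TMM factors, and percent of reads uses library totals. The edgeR steps were tested on simulated data. Alternatives were DESeq2 size factors and test (1.42.0), library size alone, 2 filters, limma voom (3.58.1), other sets of libraries and each tumour left out. Groups, members and the 35 gene lists (1188 names, 93 unmatched) were chosen with earlier results of these data known. Genes were named if they passed with an informative symbol, as the 12 next each way, as up to 4 list members with the smallest p and 3 with the highest level, or from a panel. Further glycolysis and antigen presentation genes and those of single tumours were picked with values known. Symbols come from a reference list (27000 of 35117 IDs), in which paralogues can share a human symbol. No sequences were used here.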

Additional observations from a re-analysis of the deposited data

Results flagged for a closer look

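In 8 of 84 values examined over the 4 heterozygous primary tumours, 1 tumour lay apart from the other 3 by Dixon's criterion, which chance meets in about 1 in 20 groups. Heterozygous tumour 2 was apart in 4 of them: high in MYC ENSDARG00000007241 (1013 CPM) and in liver markers (0.452% of reads), low in mfap4.8 (12.4 CPM), and at 0.0650 CPM of dntt, where the other 3 had 0 reads. Heterozygous tumour 3 was high in MFAP4 ENSDARG00000090557 (1.91 CPM) and held the only read of si:ch73-168d20.1 (0.0488 CPM). For dntt and si:ch73-168d20.1 the other 3 tumours had 0 reads, where any read meets the criterion. The rate of 1 in 20 does not apply to them. Heterozygous tumour 4 was low in B cell and plasma cell markers (0.00363% of reads). Heterozygous tumour 1 was low in CXCR3 (1.67 CPM). Of the genes that passed, MFAP4 ENSDARG00000090557 and si:ch73-168d20.1 were also called without heterozygous tumour 3.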

How the results depend on the processing

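All 9 genes kept their direction in the other 15 fits, and the number passing changed with most of them. It was 14 (9 higher, 5 lower) with no filter beyond 1 read and with a minimum count of 50, 13 (10 and 3) with DESeq2 size factors, 11 by library size alone, 9 with summed transplants in the fit, 719 (524 and 195) with DESeq2's own test, 1 (0 and 1) with limma voom and 0 (0 and 0) on the 6 tumours alone; the cause was not tested. DESeq2 size factors moved the median of all genes tested from 0.07 to 0.21 on the log2 scale. Leaving out 1 tumour gave 8 to 155 genes, 3 to 58 higher and 5 to 121 lower, with 70, 28, 31 and 8 without heterozygous tumours 1 to 4 and 155 and 106 without TLX1 tumours 1 and 2; with 1 TLX1 tumour left, its spread is taken from the other groups. PHF6 ranged from -0.92 to 0.68 in those fits, with 0.68 without TLX1 tumour 1, and did not pass in any of the 15. With tumour number as a replicate block 447 genes passed (218 higher, 229 lower). Equal numbers did not deviate together (r = -0.19 and -0.21 for numbers 1 and 2). The deviations of both TLX1 tumours from their mean mirror each other, so these values cannot decide whether equal numbers share a source. With 2 tumours in 1 group, differences of genotype and of single tumours cannot be told apart in these data. PHF6 RNA was as low in TLX1 tumour 2 as in heterozygous ones.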
